A study of Mus musculus with 4 samples.

Results

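The nuclear genes for respiratory complex I were followed in sorted bone marrow cells from mice with and without Cpt1a. Members were the protein-coding gene models whose mouse symbol begins with Nduf, other than Ndufa4, whose product is counted as a subunit of complex IV. The rule took 45 of 55401 gene models. Of these, 7 were core subunits, 29 were accessory subunits and 8 were Ndufaf assembly factors. The last, Ndufa4l2, is a relative of Ndufa4 and belongs to neither class. It was listed at 0 counts in each of the 4 libraries and could not be tested, so that 44 members entered the comparison.

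Complex I (NADH:ubiquinone oxidoreductase) takes electrons from NADH through a flavin and a chain of iron-sulfur clusters to ubiquinone, and pumps protons across the inner mitochondrial membrane. Its core subunits carry the catalysis and come partly from nuclear genes and partly from the mitochondrial genome. The accessory subunits surround and stabilise them, and the assembly factors help to build the enzyme but are absent from the finished complex.

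The Control mice were Cpt1a fl/fl, carrying loxP-flanked Cpt1a without Cre, although the genotype label of these samples reads WT. The KO mice (labelled Cpt1a-KO) carried the same floxed alleles with Vav1-Cre, which is active throughout the blood system, so other blood cells of the KO mice lacked Cpt1a as well. All mice were on the C57BL/6 background and adult, with both sexes used in the study. Poly(A) RNA was measured in 2 Control and 2 KO libraries of bone marrow cells labelled ltHSC, and the study's own text calls the sequenced cells HSPCs, a wider class. CPT1A is the outer mitochondrial membrane enzyme that commits long-chain fatty acids to oxidation, and the comparison addresses whether the transcripts for complex I differ once it is lost. Whether each replicate was its own animal is stated in no label, and p-values therefore reflect only how much these samples varied.

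Total counts ran from 20589218 to 34083159 per library. Cpt1a itself was listed at 37.0 and 35.6 TPM (transcript levels scaled for length and library total) in Control against 11.5 and 19.2 TPM in KO, a log2 fold change of -1.60 (edgeR, SE 0.15, adjusted p = 0.00695). With limma on log2(TPM + 1) it was -1.23 and did not pass (adjusted p = 0.425). Of 15 stem cell markers 0 passed in edgeR, 4 were lower at an unadjusted p under 0.05, and DESeq2 called 3 lower. Their summed TPM was 754 and 796 in Control and 713 and 687 in KO, but Slamf1 was low (2.88 to 4.83 TPM) and Hoxb5 was between 0 and 1.12 TPM. Over all genes tested, 0.663% passed in edgeR, 10.4% were at an unadjusted p under 0.05, and DESeq2 called 8.15%. Markers of other blood cells differed between the groups, and 1 library stood apart. Summed B lineage markers were 65.0 and 97.1 TPM in Control and 677 and 465 TPM in KO, and edgeR called 10 of 10 higher. Summed mast cell markers were 199.7 and 145.9 TPM against 469 and 552 TPM, with 4 of 9 called higher, and Cma1 and Tpsb2 were listed at 0 in both Control libraries. Summed erythroid markers were 1552 and 1488 TPM against 647 and 733 TPM. Each of the 14 had a log2 fold change below 0, edgeR called 8 and DESeq2 12. Summed neutrophil markers were 11858 and 8152 TPM against 6355 and 6531 TPM. Each of the 10 was below 0, 7 were at an unadjusted p under 0.05, edgeR called 1 and DESeq2 5. In Control replicate 2 the immediate early genes, which respond within minutes to handling or stimulation, summed to 7125 TPM, against 645, 499 and 408 TPM in the other libraries. The part of these differences in the complex I values was not tested. In bulk RNA, fewer cells of a type and less RNA per cell cannot be told apart.

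The complex I genes were spread over 17 chromosomes. A divergent protein-coding gene started within 1000 bases of the start of 12 of 45 members (26.7%), against 1486 of 21897 protein-coding genes (6.79%). RefSeq promoter windows of 300 bases (250 before to 50 after the start, GRCm38.p6) were found for 39 of 45 members. Both strands were searched for short words bound by factors known to act at genes for respiratory chain proteins. Shares are of genes with a window, and a gene with several windows was counted if any held the word. The NRF1 word (GCGCA, any base, then GCGC) was in 7 of 32 subunit genes (21.9%) and in 2 of 7 assembly factor genes (28.6%). It was in 7.17% of the 17491 protein-coding genes and 5.19% of all 27025 genes. The stricter form, with T as the free base, was in 1 of 32 subunit genes (3.1%) and 2 of 7 assembly factor genes. That form was in 1.47% of protein-coding genes. The YY1 word AAGATGGCG was in 5 of 32 subunit genes (15.6%) and 1 of 7 assembly factor genes, against 2.14% of protein-coding genes. The ETS word CCGGAAG, read by the GABP factor, was in 4 of 32 subunit genes (12.5%) and 2 of 7 assembly factor genes. It was in 12.9% of protein-coding genes, so that the subunits held it at about the background share. The ERR word AAGGTCA was in 3 of 32 and 0 of 7, against 4.73% of protein-coding genes. The SP1 word GGGCGG was in 15 of 32 (46.9%) and 6 of 7, against 49.2%. A match is a description of letters and not a bound site.

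The stretches from 130 bases before to 30 bases after the annotated start are given below for a few members, picked by hand so that each of the first 4 words appears, with matches in capitals. In this stretch Ndufa5, Ndufa8, Ndufaf4, Ndufs5 and Ndufs6 also held an NRF1 word, and Ndufaf1, Ndufb7 and Ndufs8 the ETS word. Ndufa11 lies at chr17:56717632-56717791 (plus strand), Ndufaf5 at chr2:140170516-140170675 (plus) and Ndufs3 at chr2:90904692-90904851 (minus). Ndufb4 lies at chr16:37654339-37654498 (minus) and Ndufaf8 at chr11:120098804-120098963 (plus). Capitals mark an NRF1 word in Ndufa11 and Ndufaf5, the ETS word on either strand in Ndufs3, 2 NRF1 words around an ERR word in Ndufb4, and the ETS word followed by the YY1 word in Ndufaf8.
Ndufa11: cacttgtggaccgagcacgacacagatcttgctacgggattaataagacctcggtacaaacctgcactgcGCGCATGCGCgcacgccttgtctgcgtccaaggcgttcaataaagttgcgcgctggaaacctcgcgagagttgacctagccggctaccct
Ndufaf5: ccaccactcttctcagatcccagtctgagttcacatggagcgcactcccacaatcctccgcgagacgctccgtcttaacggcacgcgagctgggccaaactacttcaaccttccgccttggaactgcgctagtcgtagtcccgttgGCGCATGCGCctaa
Ndufs3: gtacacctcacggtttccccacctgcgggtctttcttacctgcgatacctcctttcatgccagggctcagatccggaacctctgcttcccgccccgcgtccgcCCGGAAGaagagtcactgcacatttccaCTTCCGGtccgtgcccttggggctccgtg
Ndufb4: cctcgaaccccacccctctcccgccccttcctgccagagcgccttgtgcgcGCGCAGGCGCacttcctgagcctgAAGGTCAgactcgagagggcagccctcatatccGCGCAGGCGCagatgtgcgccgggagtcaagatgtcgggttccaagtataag
Ndufaf8: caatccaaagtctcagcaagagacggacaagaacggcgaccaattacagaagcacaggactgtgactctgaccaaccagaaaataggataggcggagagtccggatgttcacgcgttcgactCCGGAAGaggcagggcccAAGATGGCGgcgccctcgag

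Subunit transcripts were far more abundant than those of the assembly factors (levels below are TPM, which allow for transcript length). The median subunit had a mean over the 4 libraries of 132.4 TPM and the median assembly factor 21.3 TPM, a ratio of 6.23. Of 36 subunits, 34 were above each assembly factor, and Ndufb4 and Ndufs4 were not. Subunit levels spanned 8.63-fold, from 31.4 TPM for Ndufb4 to 271.1 TPM for Ndufb7, a membrane arm subunit. Ndufa3 (270.4 TPM) and Ndufa12 (265.1 TPM) stood next, and the order of these 3 changed between libraries. The low end of the span is uncertain, since Ndufb4 shares sequence with the pseudogene model Ndufb4c. Ndufb4c was listed at 258 and 216 TPM in Control and 219 and 224 TPM in KO. Core subunits lay between 78.6 and 161.4 TPM and assembly factors between 13.7 (Ndufaf5) and 73.0 TPM (Ndufaf2). Across the 44 genes, which are not independent replicates, Spearman's rho between 2 libraries was 0.894 to 0.953 over the 6 pairs.

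**Figure D1:**
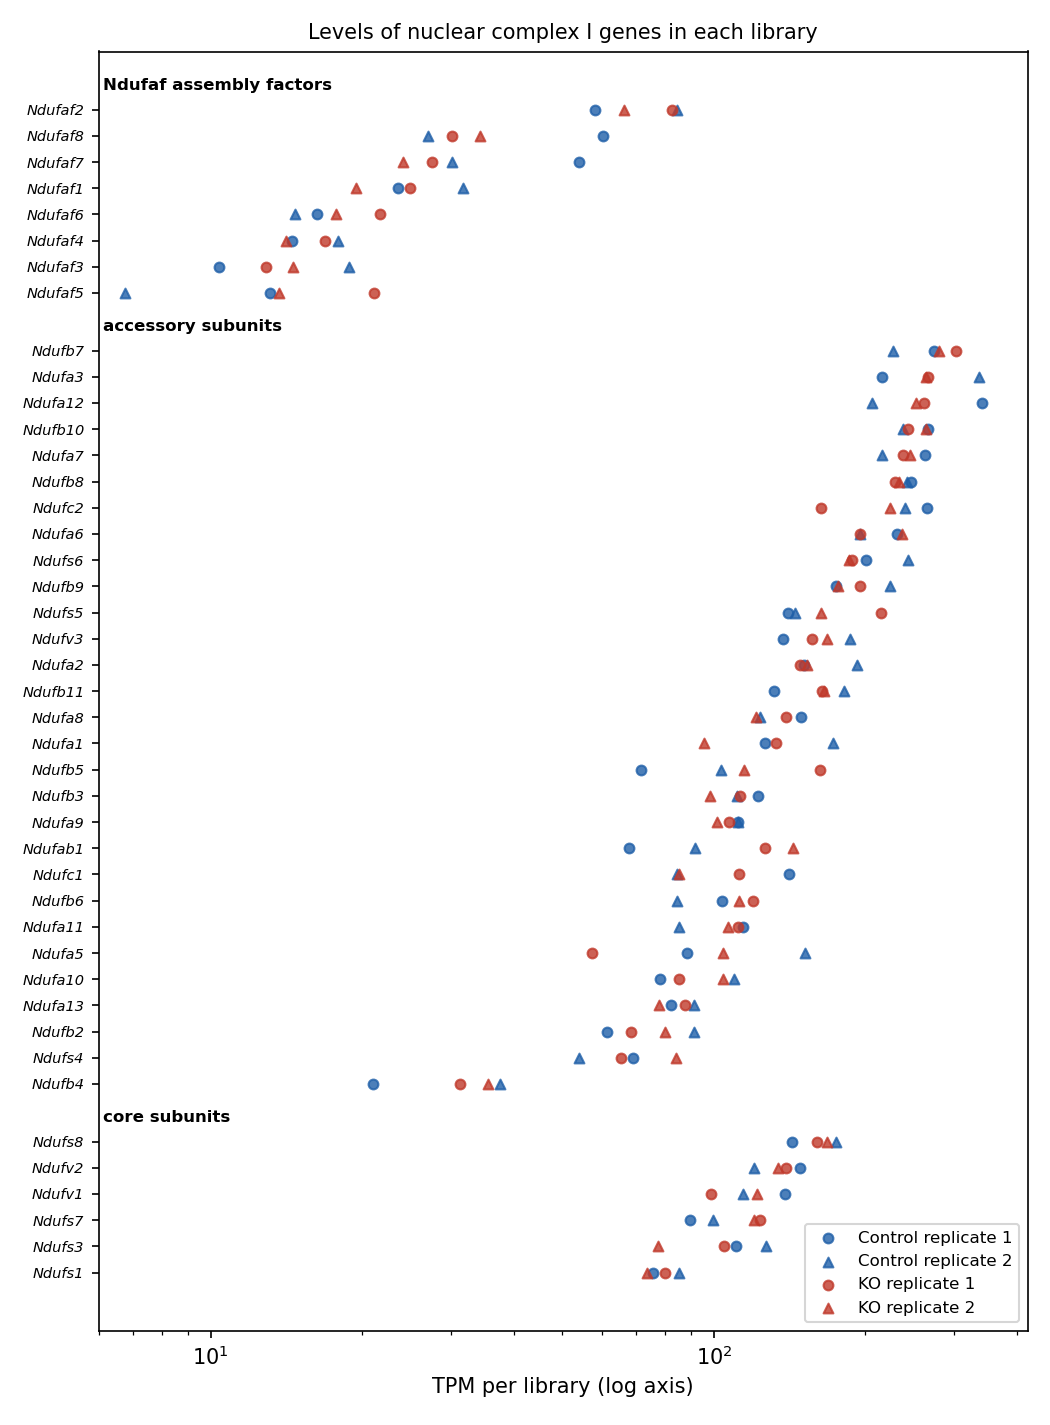
TPM of 43 tested members in each library (log axis), grouped as core subunits, accessory subunits and Ndufaf assembly factors and ordered by mean level. Blue marks are Control and red marks KO, circles replicate 1 and triangles replicate 2. The assembly factors lie to the left of nearly all subunits, and the colours mix within most genes.

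The summed level of the subunits was nearly the same in every library. It was 5330 and 5442 TPM in Control (5386 ± 78.8, SD, n = 2) and 5340 and 5319 TPM in KO (5330 ± 15.2, SD, n = 2), with 1 KO value between the Control values and 1 just below them, so that the groups overlapped. The ratio of the means was 0.990. The core subunits alone summed to 886 and 864 TPM in Control and 854 and 844 TPM in KO (ratio 0.970), without overlap. The accessory subunits summed to 4444 and 4577 TPM against 4486 and 4475 TPM (ratio 0.993), with overlap. By symbol, both KO sums lay below both Control sums for Ndufa and Ndufc subunits and above them for Ndufb subunits. Those of Ndufs and Ndufv subunits overlapped. No test was run on these sums. The assembly factors summed to 250 and 232 TPM in Control and 238 and 204 TPM in KO, a ratio of 0.918, and these groups overlapped as well.

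No member passed the test. In the edgeR quasi-likelihood fit of all genes, 0 of 44 members had an adjusted p under 0.05, against 0.663% of the 14635 genes tested (0.451% higher and 0.212% lower in KO), and 0 had an unadjusted p under 0.05, against 10.4% of all genes. DESeq2 also called 0 of 44, against 8.15% of all genes, with 1 member (Ndufs7) at an unadjusted p under 0.05. The subunits had a median log2 fold change (KO over Control) of -0.02 and the assembly factors of -0.18, beside 0.01 for all genes. Log2 fold changes were above 0 in 18 members and below 0 in 26. Without Control replicate 2 the medians were -0.06 for subunits and 0.07 for assembly factors, the latter with its sign turned, and 0 members passed.

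The size of a difference that these 4 libraries left possible varied among members. The 95% interval of the log2 fold change lay within 2-fold in either direction for 36 of 44 members, against 53.6% of all genes, and within 1.5-fold for 18, all of them subunits, against 28.0%. The members had a median of 1269 counts, against 714.5 for all genes tested, and intervals narrow with counts. Of the classes, 7 of 7 core subunits, 26 of 29 accessory subunits and 3 of 8 assembly factors had intervals within 2-fold. The exceptions were Ndufa1, Ndufa5, Ndufb4, Ndufaf3, Ndufaf5, Ndufaf6, Ndufaf7 and Ndufaf8, whose intervals did not exclude a 2-fold difference.

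**Figure D2:**
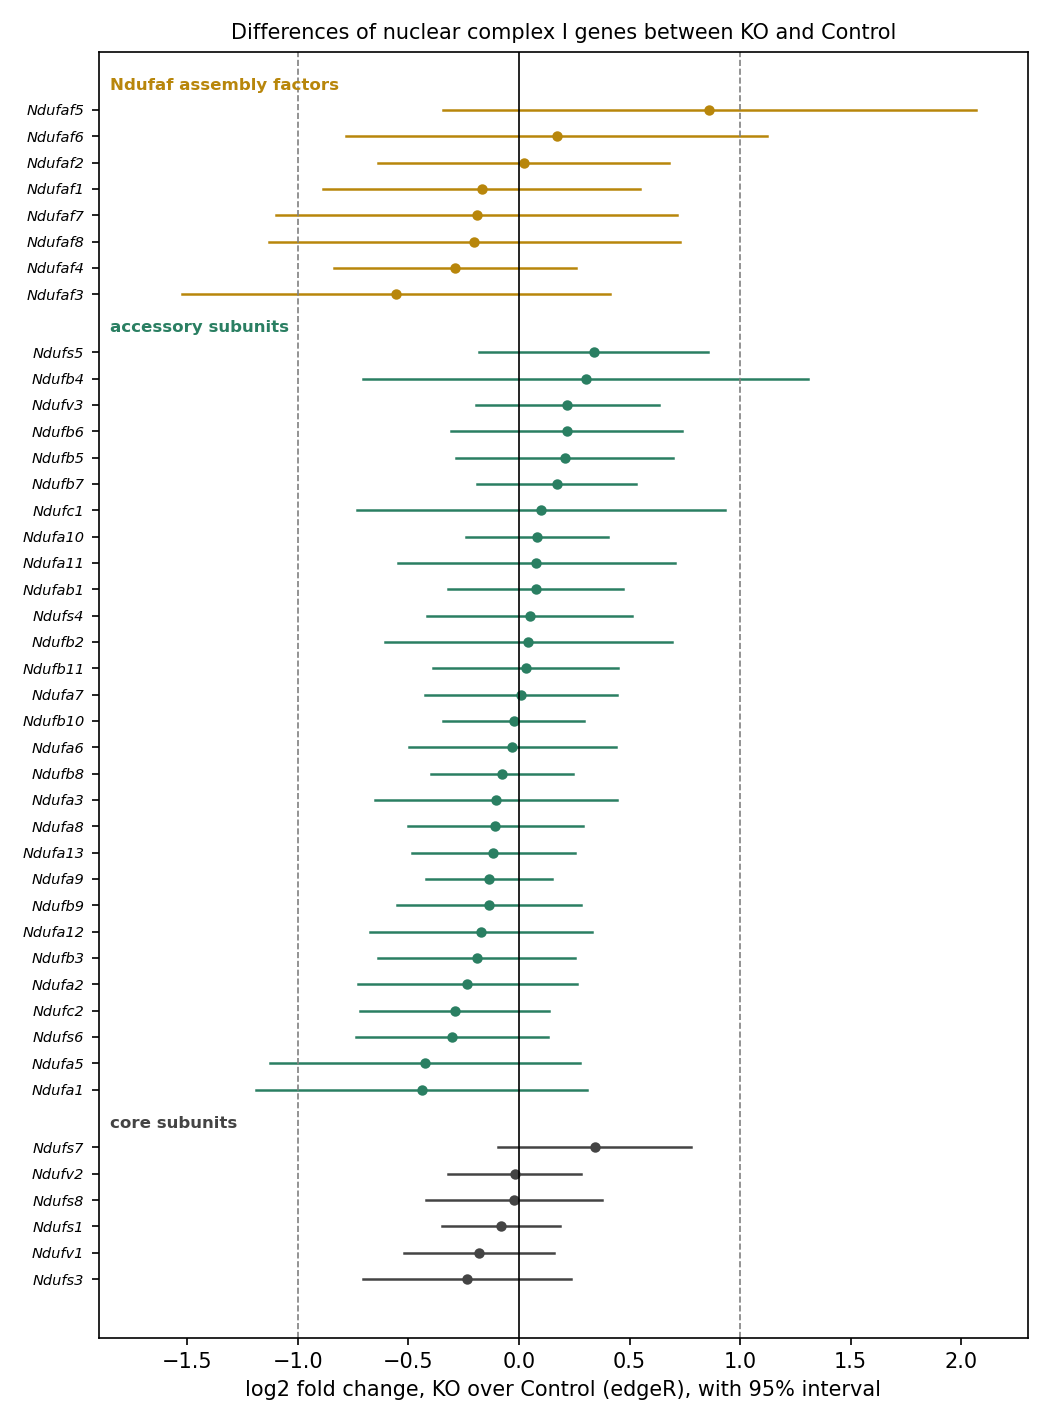
Log2 fold change of 43 tested members (points) with their 95% intervals (lines) from edgeR, KO over Control, 2 libraries per group. Dashed lines mark 2-fold in either direction. Each interval drawn crosses 0, and the widest are those of the assembly factors Ndufaf5 and Ndufaf3 and of the subunit Ndufb4.

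At the median, members differed less between groups than between replicates. The median absolute log2 difference was 0.256 between the Control replicates, 0.171 between the KO replicates and 0.135 between the group means over the members, against 0.284, 0.228 and 0.219 over all genes. For the assembly factors it was 0.719 between the Control replicates, 0.300 between the KO replicates and 0.161 between the group means. A difference of means of 2 libraries is smaller by construction than one of single libraries, for all genes alike. In scaled counts, 14 of 44 members (31.8%) had groups that did not overlap, against 41.9% of all genes. Of these, 5 were higher in KO, against 22.7% of all genes, and 9 were lower, against 19.3%. The group difference exceeded both replicate differences in 6 members (13.6%) and in 24.96% of all genes. With 2 against 2 libraries an exact permutation test cannot go below p = 0.333.

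Among the core subunits, Ndufs7 had the smallest p of all members. NDUFS7 holds the last iron-sulfur cluster before ubiquinone. Its scaled counts (CPM, counts relative to the library total) were 33.98 and 37.2 in Control and 45.0 and 45.3 in KO, so both KO libraries lay above both Control libraries. The log2 fold change was 0.34 with an SE of 0.19 and a 95% interval from -0.09 to 0.78 (adjusted p = 0.580, edgeR), and its level was 89.8 and 99.5 TPM in Control against 123 and 120 TPM in KO. It was also the member with the lowest adjusted p in DESeq2, 0.168.

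Ndufs1 encodes the largest subunit, with iron-sulfur clusters of the NADH-binding module. It was at 122 and 117 CPM in Control and 115 and 111 CPM in KO, with both KO values just below, and its log2 fold change was -0.08 (SE 0.11). The gene overlaps Eef1b2 on the opposite strand, and whether counting used strand is unknown here.

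Ndufv1 encodes the flavin-bearing subunit that binds NADH. It was at 123 and 114 CPM in Control and 92.3 and 117 CPM in KO, so that KO replicate 1 was low and the groups overlapped. Ndufv2, for its iron-sulfur partner, was at 97.9 and 88.7 CPM against 89.1 and 94.8 CPM. Their log2 fold changes were -0.18 (SE 0.15) and -0.02 (SE 0.13).

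Ndufs3, for a subunit of the ubiquinone module, was at 52.0 and 62.2 CPM in Control and 55.6 and 41.4 CPM in KO, with the lowest value in KO replicate 2. Ndufs8, for a subunit with a pair of iron-sulfur clusters, was at 56.9 and 72.8 CPM against 61.8 and 65.8 CPM, with both KO values between the Control values. Their log2 fold changes were -0.24 (SE 0.20) and -0.02 (SE 0.17).

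The accessory subunits split into 14 above and 15 below 0, with a median log2 fold change of -0.02. After Ndufs7 and Ndufaf5, the smallest p-values among members higher in KO belonged to Ndufs5, Ndufv3 and Ndufb7. Ndufs5, for a small subunit of the intermembrane space side, was at 27.4 and 28.3 CPM in Control and 39.4 and 31.02 CPM in KO. Both KO libraries were above, KO replicate 1 more than KO replicate 2, and the log2 fold change was 0.34 (SE 0.22, adjusted p = 0.673, edgeR). Ndufv3 (46.1, 53.1, 52.7 and 62.8 CPM, Control then KO) and Ndufb7 (76.4, 63.6, 83.5 and 74.1 CPM) had overlapping groups and log2 fold changes of 0.22 and 0.17.

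The smallest p-values among members lower in KO belonged to Ndufs6, Ndufc2, Ndufa5, Ndufa1 and Ndufaf3. Ndufs6 encodes a zinc-binding subunit of the NADH module. It was at 45.4 and 54.5 CPM in Control and 40.8 and 40.0 CPM in KO, with both KO libraries below, and a difference on the log2 scale of -0.30 (SE 0.19, 95% interval -0.74 to 0.13, adjusted p = 0.632, edgeR). Ndufc2, for a membrane arm subunit, was at 73.3 and 63.9 CPM in Control and 48.4 and 63.7 CPM in KO. The second KO library all but met the lower Control library, and the log2 fold change was -0.29 (SE 0.19).

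Ndufa5, a subunit gene of the peripheral arm, was at 19.7 and 23.1 CPM in Control and 12.8 and 19.1 CPM in KO. Ndufa1, an X-linked gene for a small membrane protein, was at 15.3 and 20.5 CPM in Control and 15.3 and 11.1 CPM in KO. In both genes the higher KO value lay just under the lower Control value, by less than the spread within either group, and log2 fold changes of -0.43 (SE 0.30) and -0.44 (SE 0.32). The value of Ndufa1 was the lowest among subunits.

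For complex I in native gels the study names an antibody to GRIM19 in its methods and one to NDUFA9 elsewhere. Those gels measured protein complexes in equal amounts of mitochondria from c-Kit+ cells, and the study reported more complex I in KO. The study also reported higher complex I activity and more mitochondrial DNA in c-Kit+ cells, and greater mitochondrial mass in LT-HSCs. The values here are RNA levels of other sorted cells and do not measure protein. Ndufa13, which encodes GRIM19, was at 82.4 and 91.4 TPM in Control and 87.5 and 77.6 TPM in KO, so the groups overlapped. The log2 fold change was -0.12 (SE 0.16, 95% interval -0.49 to 0.25, adjusted p = 0.908, edgeR), which leaves 0.715-fold to 1.19-fold. Ndufa9 was at 95.4 and 97.5 CPM in Control and 89.2 and 86.4 CPM in KO, both KO values below, a difference on the log2 scale of -0.14 (SE 0.12, adjusted p = 0.805, edgeR).

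Among the 3 most abundant members, Ndufb7 was at 274 and 227 TPM in Control and 303 and 281 TPM in KO, both KO values above, although its scaled counts overlapped. Ndufa3 was at 216 and 336 TPM in Control and 266 and 264 TPM in KO, both KO values between the Control values. Ndufa12, for a subunit of the peripheral arm, was at 340.5 and 206 TPM in Control and 262 and 252 TPM in KO, likewise between.

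Ndufb4 had the largest difference between replicates. It was listed at 162 and 447 counts in Control and 532 and 616 counts in KO, which is 7.8 CPM in Control replicate 1 and 15.5 to 19.5 CPM in the other libraries. Ndufb4c, a processed pseudogene that matches 19.1% of the 31-base words of Ndufb4, was listed at 542 and 491 counts in Control and 724 and 733 counts in KO. Ndufb4 thus took 23.0% of the pair in Control replicate 1 and 42.3% to 47.6% elsewhere. The sum of both was 33.98 and 40.9 CPM in Control and 36.5 and 39.9 CPM in KO, with overlapping groups. Fitted as 1 feature, a choice made after the values were seen, the pair had a difference on the log2 scale of 0.03 (SE 0.21), against 0.30 (SE 0.44) for Ndufb4 alone. Its level relative to other subunits is uncertain for the same reason.

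The lowest levels among tested members were those of Ndufaf5, Ndufaf3 and Ndufaf4. The assembly factors varied most among themselves, from a log2 fold change of -0.56 for Ndufaf3 to 0.86 for Ndufaf5. They also had the lowest counts, a median of 410 against 1491 for subunits. Ndufaf5 encodes an enzyme that hydroxylates an arginine of NDUFS7. It was at 179 and 85 counts in Control and 464 and 301 counts in KO, or 8.6 and 3.7 CPM against 13.5 and 8.9 CPM. Both KO libraries lay above, but KO replicate 2 was close to Control replicate 1, and the SE was 0.52 (95% interval -0.34 to 2.07, adjusted p = 0.623, edgeR). Without Control replicate 1 the log2 fold change was 1.60, and without Control replicate 2 it was 0.37, neither past the test. Ndufaf8, for the partner protein of NDUFAF5, was at 14.8 and 8.6 CPM against 10.4 and 9.9 CPM, both KO values between those of Control (log2 fold change -0.20, SE 0.40).

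Ndufaf3 and Ndufaf4 encode proteins that work together on the ubiquinone module. Ndufaf3 was at 9.3 and 17.0 CPM in Control and 9.8 and 8.1 CPM in KO, so 1 high Control library set the difference (log2 fold change -0.56, SE 0.42). Without Control replicate 2 it was -0.05. In TPM Ndufaf3 was at 10.4 and 18.8 in Control and 12.9 and 14.6 in KO, both KO values between the Control values. The log2 difference in mean TPM was -0.09. The gene overlaps Impdh2 on the opposite strand. Ndufaf4 was at 32.8 and 32.5 CPM in Control and 30.6 and 22.9 CPM in KO, both KO values below, with a difference on the log2 scale of -0.29 (SE 0.24).

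Ndufaf7 encodes a protein arginine methyltransferase. It was at 36.5 and 15.9 CPM in Control and 19.3 and 26.5 CPM in KO, with both KO values between those of Control. Its log2 fold change was -0.19 (SE 0.39), and it was 0.53 without Control replicate 1 and -0.67 without Control replicate 2. Ndufaf1, for an early factor of the membrane arm, was at 15.4 and 24.2 CPM in Control and 19.0 and 16.3 CPM in KO. Ndufaf2, for a relative of NDUFA12 that acts late in assembly, was at 17.8 and 25.4 CPM against 24.3 and 19.6 CPM. In both, the KO values again fell between the Control values (log2 fold changes -0.17, SE 0.31, and 0.02, SE 0.29). Ndufaf6, which acts early, was at 7.1 and 7.8 CPM in Control and 8.7 and 8.1 CPM in KO, with KO just above and a difference on the log2 scale of 0.17 (SE 0.41).

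**Figure D3:**
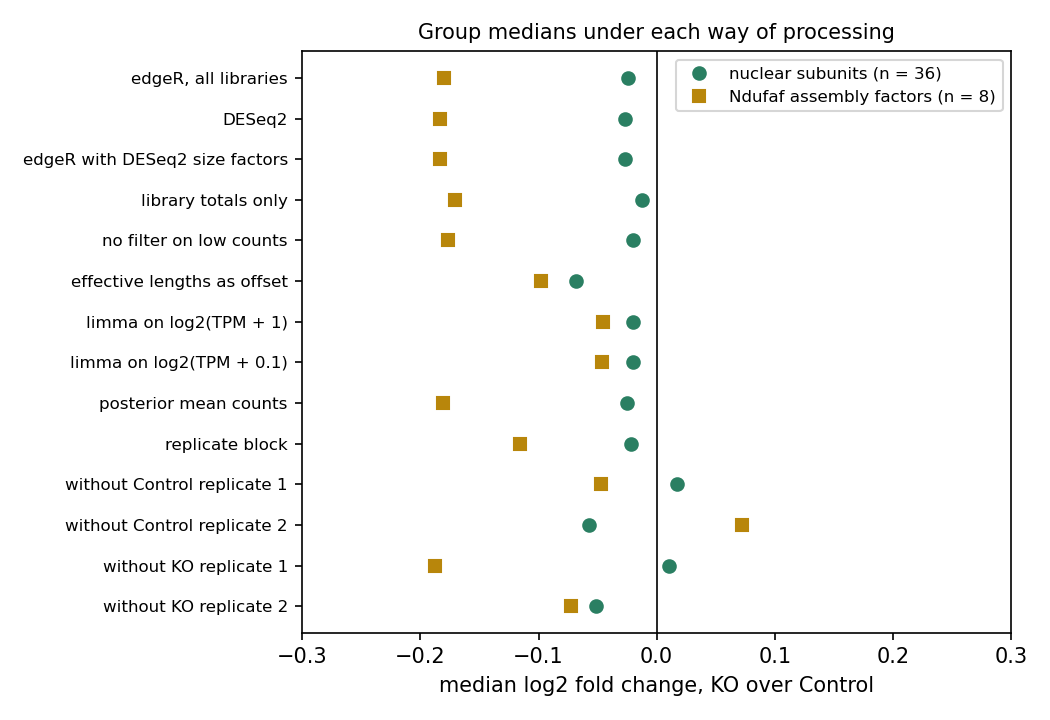
Median log2 fold change (KO over Control) of the 36 nuclear subunits and of the 8 Ndufaf assembly factors under each way of processing, named on the vertical axis. The subunit median stayed between -0.07 and 0.02, while that of the assembly factors ran from -0.19 to 0.07 and was the higher of the pair without Control replicate 2.

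The unit mattered for several members. Of those named above, Ndufs1, Ndufa1, Ndufa5 and Ndufaf4 had both KO libraries below both Control libraries in CPM, but overlapping groups in TPM. Ndufs1, for example, was at 75.7 and 85.3 TPM in Control and 79.8 and 73.6 TPM in KO. TPM divide the count by an effective length, which for a gene with several transcripts is an average weighted by the estimated share of each transcript in that library. In 2 members the log2 difference in mean TPM and the fitted log2 fold change of the counts were over 0.5 apart, Ndufab1 and Ndufaf7. NDUFAB1 is the mitochondrial acyl carrier protein, which also serves fatty acid synthesis in mitochondria. Ndufab1 was at 60.6 and 51.8 CPM in Control and 54.9 and 63.5 CPM in KO, overlapping, with a difference on the log2 scale of 0.07 (SE 0.17). Its level was 67.8 and 91.9 TPM in Control and 126 and 144 TPM in KO, with both KO libraries above. The effective length was 1238 and 763 bases in Control and 619 and 612 bases in KO, over 10 annotated transcripts. On log2(TPM + 1) the difference was 0.76 (adjusted p = 0.433, limma).

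Ndufaf7 went the other way. Its effective length was 938 and 711 bases in Control and 994 and 1526 bases in KO, and its level 53.8 and 30.2 TPM against 27.6 and 24.1 TPM, so that KO was below in TPM and within the Control values in CPM. Ndufb5, for a membrane arm subunit, was at 71.6 and 103 TPM in Control and 162 and 115 TPM in KO but at 40.3, 51.9, 60.1 and 46.4 CPM. Ndufaf3 had effective lengths of 1232 and 1225 bases in Control and 1087 and 764 bases in KO. None of these differences passed the test in either unit. In TPM this says little, since the deleted gene Cpt1a did not pass with limma either. Whether transcript use or its estimate differed was not tested, since only gene-level values were used.

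**Figure D4:**
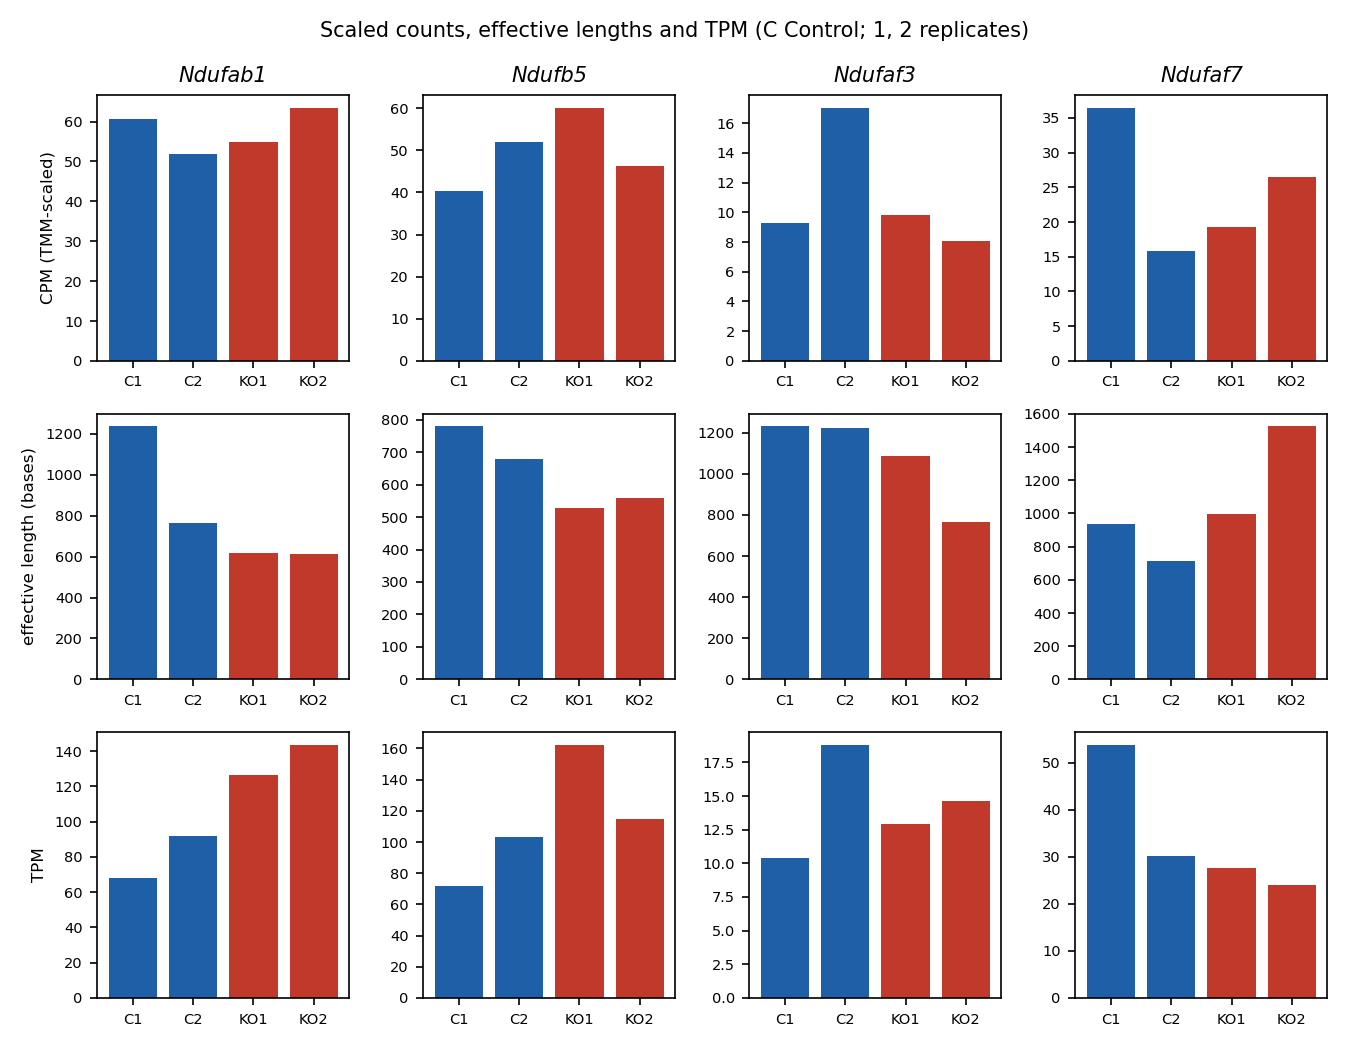
Scaled counts (CPM, top), effective length in bases (middle) and TPM (bottom) of Ndufab1, Ndufb5, Ndufaf3 and Ndufaf7 in each library, with C1 and C2 for the Control replicates and KO1 and KO2 for the KO replicates. For Ndufab1 the scaled counts overlap between groups, the effective length is lowest in KO, and TPM are higher in both KO libraries.

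The mitochondrial genome supplies the other core subunits of complex I. Of 7 such genes, 0 passed in edgeR or DESeq2 and 0 had an unadjusted p under 0.05. The log2 fold change was above 0 in 5, against 7452 of all 14635 genes, with a median of 0.08. They summed to 6856 and 5957 TPM in Control and 7045 and 7339 TPM in KO, lowest in Control replicate 2. Mt-Nd5 had the smallest p. It was at 965 and 772 TPM in Control and 1053 and 1012 TPM in KO, with both KO libraries above, and a difference on the log2 scale of 0.21 (SE 0.10, adjusted p = 0.532, edgeR). The log2 fold changes of mt-Nd1, mt-Nd2 and mt-Nd4, measured with similar precision, were 0.08, 0.06 and 0.10. In each, both KO scaled counts lay between the Control values, with Control replicate 2 the lowest. Those of mt-Nd4l, mt-Nd3 and mt-Nd6 were 0.50 (SE 0.40), -0.12 (SE 0.32) and -0.02 (SE 0.55). Poly(A) selection can distort the levels of mitochondrial transcripts.

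Of 10 assembly factors with other names, 0 passed in edgeR. At an unadjusted p under 0.05 was 1, against 10.4% of all genes, and DESeq2 called 1, against 8.15%. Nubpl, for the protein that delivers iron-sulfur clusters to complex I, was at 2.82 and 1.64 TPM in Control and 6.14 and 6.03 TPM in KO. Both KO libraries were above, with a difference on the log2 scale of 1.58 (SE 0.45, adjusted p = 0.284, edgeR), larger than that of any member. Timmdc1 and Tmem70, for membrane arm factors, had log2 fold changes of 0.33 and 0.25. Of 15 genes for iron-sulfur cluster assembly, which feeds the core subunits, 0 passed in edgeR and the median was -0.11. An unadjusted p under 0.05 was reached by 4, against 10.4% of all genes, and DESeq2 called 1 higher and 1 lower, against 8.15%. Glrx5 had a difference on the log2 scale of -0.77 (adjusted p = 0.200, edgeR), followed by Fdxr at 0.58 and Isca1 at -0.56. Glrx5 was at 80.8 and 62.1 CPM in Control and 41.6 and 42.2 CPM in KO, both KO values below. In TPM (81.3 and 41.4 in Control, 45.2 and 40.5 in KO) its groups overlapped.

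Among nuclear subunits of complexes II to V, 0 of 40 tested passed in edgeR. At an unadjusted p under 0.05 were 4, against 10.4% of all genes, and DESeq2 called 1 higher and 1 lower, against 8.15%. Of the 40, 12 were above and 28 below 0, and the median log2 fold change was -0.07. Each of the 40 had an interval within 2-fold, against 53.6% of all genes. Their median count was 2725, against 714.5 for all genes tested. Atp5j2 (0.41), Cox5b (-0.32) and Atp5l (0.33) had the smallest p-values, with a lowest adjusted p of 0.349. Of 15 regulators of mitochondrial biogenesis 0 passed in edgeR or DESeq2 and 0 had an unadjusted p under 0.05 (median 0.04), Lrpprc, Twnk and Polg having the smallest p-values with log2 fold changes of -0.24, -0.24 and -0.27. At the edge of the rule, Ndufa4 was at 474, 449, 474 and 567 TPM (log2 fold change 0.16, adjusted p = 0.772, edgeR). Ndufb1-ps is the mouse model matched to the subunit gene Ndufb1 and is not annotated as protein-coding. It was at 87.0 and 55.5 TPM in Control and 52.6 and 51.8 TPM in KO, both KO values below (log2 fold change -0.63, SE 0.27, adjusted p = 0.465, edgeR). Its unadjusted p was 0.0454 (edgeR), and its interval, from -1.25 to -0.0164, lay below 0, unlike that of any member. The rule left Ndufb1-ps out by its annotation, so the count of members at an unadjusted p under 0.05 does not include it.

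**Figure D5:**
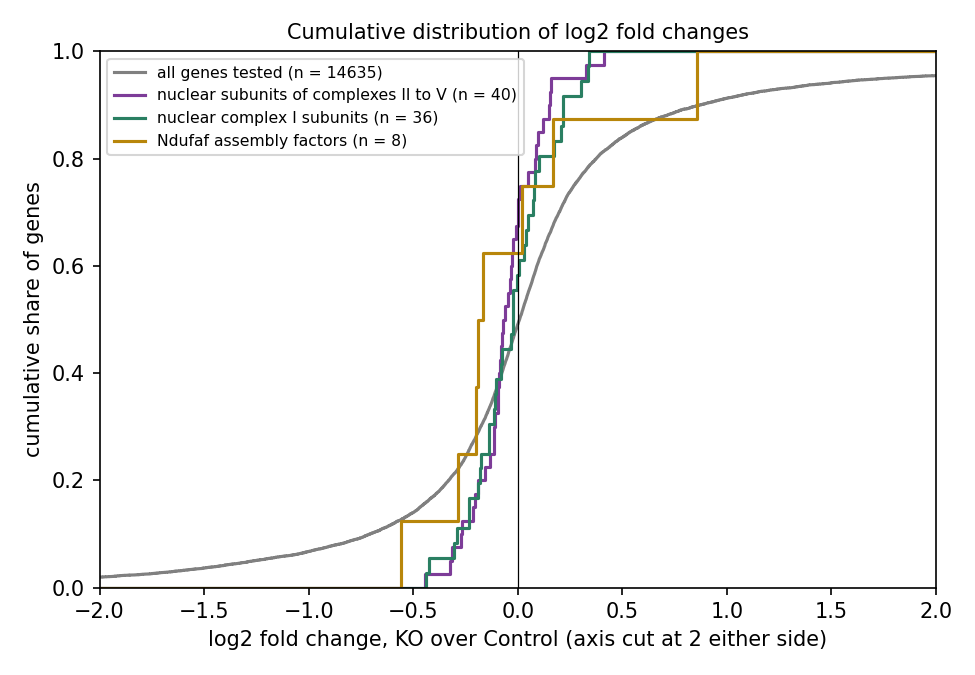
Cumulative share of genes (vertical) by log2 fold change, KO over Control (horizontal), for all 14635 genes tested, 40 nuclear subunits of complexes II to V, 36 nuclear complex I subunits and 8 Ndufaf assembly factors. The subunit curves rise steeply near 0, and the curve of all genes is broader.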

How the data were processed

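Poly(A) RNA of sorted mouse bone marrow cells (2 Control, 2 KO libraries) was prepared with a directional kit, and per the labels the reads were aligned to mm10 with STAR and counted with RSEM (versions, annotation and strand setting not given in the sources used here). The authors deposited, per gene model and library, expected counts, posterior mean counts, TPM and effective lengths. Symbols came from GENCODE M21 (GRCm38), which matched 55141 of 55401 models by version-free identifier.

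Expected counts were rounded and fitted over all genes with edgeR 4.0.16 (filterByExpr, minimum count 10; TMM factors 0.985 to 1.01; robust quasi-likelihood F test, genotype only), with Benjamini-Hochberg adjustment over the 14635 genes tested and a threshold of 0.05. Standard errors were obtained from each fold change and its F statistic. CPM are TMM-scaled counts. The biological coefficient of variation was 0.471. Replicates differed beyond counting noise in 73.1% (Control) and 71.0% (KO) of genes. Reads carry no molecular identifiers. Alternatives used DESeq2 1.42.0 (the study's own tool), other scalings, no filter, effective lengths as offset, posterior mean counts, limma 3.58.1 on log2(TPM + 1) and log2(TPM + 0.1), a replicate block, and each library left out. The fitting procedure was tested on simulated data.

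Members and gene lists were chosen with earlier results of these data known. By name are given the core subunits (1 is counted but not reported here), the Ndufaf genes, Ndufa13, Ndufa4, Ndufa4l2, Cpt1a, the 5 members with the smallest p in each direction, the 3 highest and 3 lowest by TPM, the 3 with the largest replicate difference, the mitochondrial subunit genes, and from each other list those past the test or up to 3 with the smallest p. Ndufb4c, Ndufb1-ps, Ndufa9 and Ndufb5 were named after their values were seen. Promoter sequences are from RefSeq (GRCm38.p6).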

Additional observations from a re-analysis of the deposited data

How the results depend on the processing

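In each of 13 alternatives 0 of 44 members passed, the lowest adjusted p being 0.168 (DESeq2). The subunit median moved beyond its spread with effective lengths (-0.068) and on leaving out 1 library (-0.057 to 0.017, lowest without Control replicate 2), and the assembly factor median with limma (-0.045 at a pseudocount of 1 and -0.046 at 0.1) and on leaving out 1 library (-0.19 to 0.072, highest without Control replicate 2). The difference of the medians, subunits minus assembly factors, was 0.16. It was 0.029 with effective lengths, 0.025 and 0.026 with limma, and -0.13 (without Control replicate 2) to 0.20 on leaving out 1 library. With 1 library left out, a looser condition on 3 libraries, 23 to 35 members did not overlap (52.3% to 79.5%), against 64.6% to 75.6% of all genes. The lone library was then assumed to vary like the others. Cpt1a kept its direction but missed the threshold with effective lengths (-1.26, adjusted p = 0.368, edgeR) and limma (-1.23 and -1.28, adjusted p = 0.425 and 0.443). The 97 genes past the test became 1147 with DESeq2, 196 without the filter, 4 with effective lengths, 5 and 0 with limma, and 42 to 371 on leaving out 1 library (371 without Control replicate 2, 320 without Control replicate 1). The causes were not tested. Whether libraries with the same replicate number shared a batch is stated in no label. The correlation of same-numbered deviations was -0.026, which with 2 libraries per group cannot settle this. With the replicate block 98 genes and 0 members passed and the medians were -0.022 and -0.12. The alternatives added after seeing the data left the subunit median at -0.024 (21 subunits with no gene on the opposite strand, or with Ndufb1-ps) and the assembly factor median at -0.17 (without Ndufaf3, Ndufaf5 and Ndufaf7).

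Of 559 refitted values of 43 members 53 had the opposite sign to the reported one, none past the test. With effective lengths these were Ndufa10 (-0.0048), Ndufa6 (0.0031), Ndufa7 (-0.00097), Ndufb2 (-0.058), Ndufc1 (-0.20), Ndufs8 (0.030), Ndufv2 (0.0060) and Ndufv3 (-0.015). On log2(TPM + 1) they were Ndufa6 (0.017), Ndufb10 (0.0091), Ndufb2 (-0.017), Ndufc1 (-0.15), Ndufs8 (0.055) and Ndufv2 (0.030), and on log2(TPM + 0.1) Ndufa6 (0.017), Ndufb10 (0.0092), Ndufb2 (-0.016), Ndufc1 (-0.16), Ndufs8 (0.056) and Ndufv2 (0.030). Leaving out 1 library gave ranges across 0 for Ndufa10 (-0.055 to 0.21), Ndufa11 (-0.14 to 0.34), Ndufa12 (-0.46 to 0.18), Ndufa3 (-0.35 to 0.20), Ndufa6 (-0.24 to 0.16), Ndufa7 (-0.13 to 0.16), Ndufa8 (-0.23 to 0.029), Ndufab1 (-0.034 to 0.20), Ndufaf1 (-0.45 to 0.19), Ndufaf2 (-0.21 to 0.30), Ndufaf7 (-0.67 to 0.53), Ndufaf8 (-0.54 to 0.25), Ndufb10 (-0.10 to 0.063), Ndufb11 (-0.19 to 0.29), Ndufb2 (-0.26 to 0.30), Ndufb4 (-0.21 to 1.11), Ndufb8 (-0.15 to 0.0083), Ndufb9 (-0.31 to 0.072), Ndufc1 (-0.23 to 0.37), Ndufs4 (-0.10 to 0.18), Ndufs8 (-0.19 to 0.17) and Ndufv2 (-0.090 to 0.057).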

Other observations

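Gene lists outside complex I were called as follows by edgeR. B lineage markers were higher in KO throughout the list, with log2 fold changes from 1.61 for Cd79b, part of the B cell receptor, to 4.68 for Vpreb3. Rag1 (2.80), Vpreb1 (3.05), Ebf1 (2.71), Blnk (2.52), Cd79a (3.49), Pax5 (2.49) and Igll1 (2.85) lay between. Among mast cell markers the proteases Mcpt4, Cma1 and Tpsb2 and the carboxypeptidase Cpa3 were higher. Cma1 was listed at 0 and 0 TPM in Control and 95.9 and 123 TPM in KO. The erythroid genes Aqp1 (-1.49), Ermap (-1.65), Car1 (-1.55), Car2 (-0.83), Ank1 (-1.56), Rhd (-2.45), Tfrc (-0.69) and Klf1 (-1.55) were lower, as was the neutrophil elastase gene Elane (-1.51). Stem cell markers did not pass, Gfi1b (-1.17), Esam (-0.85) and Mecom (-0.78) having the smallest p-values.

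Of 22 cell cycle genes 0 passed in edgeR, and DESeq2 called 1 higher and 1 lower, against 8.15% of all genes. At an unadjusted p under 0.05 were 4, against 10.4% of all genes. Ccne1 (-1.21), Mki67 (0.40) and Top2a (0.25) had the smallest p-values. Of 9 immediate early genes tested 0 passed in edgeR or DESeq2, and Egr1, Junb and Nr4a1 were at 470, 499.8 and 204 TPM in Control replicate 2 against at most 38.4, 90.6 and 11.9 TPM in the other libraries.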
